A study of Mus musculus with 2 samples.

Results

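The genes described here are H/ACA snoRNA genes that lie outside the bodies of protein-coding genes. H/ACA snoRNAs are small nucleolar RNAs that fold into a pair of hairpins, with an H box (ANANNA) between the hairpins and an ACA near the 3′-end. They guide the change of chosen uridines in rRNA to pseudouridine within a particle of dyskerin (Dkc1), Gar1, Nhp2 and Nop10. Most mammalian snoRNAs are cut out of introns of host genes, which may code for proteins or be noncoding small nucleolar RNA host genes (Snhg genes), and many have silent copies elsewhere in the genome.

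The genes were chosen from GENCODE release M1 as genes of type snoRNA whose name starts with SNORA, that are not within a protein-coding gene on the same strand and that had at least 10 reads in both libraries together. SNORA73 genes and the snoRNAs of Snhg1, Gas5 and Snhg12 were left out. Of 1031 annotated H/ACA snoRNA genes, 203 lay within protein-coding genes and 828 outside, and 817 of the latter remained. There were 0 reads in both libraries at 774 of them and 1 to 9 reads at 16, which held 44 reads in ESCs and 16 in NPCs. The other 27 genes, with 18 different names, are reported, out of 14859 genes of all types with at least 10 reads. The number of reads chose them, so neither their presence nor their level is a finding. Just outside the limit were SNORA67 on chromosome 11 with 9 reads, and SNORA17 on chromosome X and SNORA62 with 8 reads each, and just inside were SNORA17 on chromosome 6 with 11 reads and SNORA17 and SNORA71 on chromosome 7 with 12 reads each.

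Both samples are NPA RNA (RNA left after poly(A) removal), sequenced strand-specifically in 1 library per cell type. The embryonic stem cells (ESCs) were the mouse line R1 grown on fibroblast feeders. The neuronal progenitor cells (NPCs) were derived from the same ESCs by way of embryoid bodies and were collected on day 7. With 1 library each there is no test between cell types, and each ratio compares these libraries. Totals were 4271306 reads in ESCs and 4399729 in NPCs, so 1 read was worth 0.234 and 0.227 RPM (reads per 1000000 reads of the library). Intervals are 95% intervals for counting error only. They treat reads as independent molecules, which reads without molecular identifiers need not be, so they may be too narrow.

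Markers of the named cell types were examined first. In NPCs, 8 of 9 measured pluripotency genes were lower, set beside 37.1% of all genes with at least 10 reads. Of 6 measured neural genes 5 were higher, set beside 62.9% of all genes, and few reads fell on some of this list: Fabp7 had 0 reads in ESCs and 2 in NPCs, Hes5 had 1 and 2, and Pou3f2 had 0 and 5. The summed level of the neural list was 173 RPM in ESCs and 235 in NPCs. All 10 measured genes of extraembryonic endoderm were more than 2-fold higher in NPCs, set beside 25.5% of all genes, and their summed level was 614 RPM in ESCs and 11009 in NPCs. Fibroblast genes summed to 43.5 RPM in ESCs and 59.3 in NPCs, and 0 reads fell on Lum in either library. The part of these cell types in the snoRNA results was not tested. In bulk RNA, fewer cells of a type and less RNA per cell cannot be told apart. The share of all reads on snoRNA genes of any kind was 22.0% in ESCs and 9.9% in NPCs.

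The gene with most reads was a SNORA71 gene on chromosome 2, shown with its neighbours because they are copies within a single host. SNORA71 (U71) guides a modification of the rRNA of the small ribosomal subunit. The 3 copies lie on the minus strand of mm9 within the lincRNA 9430008C03Rik (chr2:158181043-158187316), whose current RefSeq symbol is Snhg17. Copy a is at chr2:158182160-158182290 in an intron, and copy b at chr2:158184096-158184208 and copy c at chr2:158185534-158185665 overlap annotated exons. In copy a, capitals mark the ANANNA nearest to the middle and the ACA at the 3′-end. In copies b and c, capitals mark bases that differ from copy a, and bases missing relative to copy a are not shown.
SNORA71 copy a: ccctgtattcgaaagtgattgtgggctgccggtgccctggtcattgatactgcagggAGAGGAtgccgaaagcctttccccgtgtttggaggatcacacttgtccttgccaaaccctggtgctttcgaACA
SNORA71 copy b: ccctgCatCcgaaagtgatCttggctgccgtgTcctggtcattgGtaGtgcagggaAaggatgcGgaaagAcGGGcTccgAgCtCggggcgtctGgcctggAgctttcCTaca
SNORA71 copy c: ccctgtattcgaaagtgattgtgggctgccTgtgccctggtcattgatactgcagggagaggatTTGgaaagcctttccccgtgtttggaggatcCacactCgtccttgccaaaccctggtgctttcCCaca
Copy c differed from copy a at 8 bases, an identity of 93.9%, and copy b at 39 bases, an identity of 70.2%.

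Snora17 and SNORA57 are shown because nearly all of their reads could be placed, with capitals for the same boxes. Snora17 (chr2:26494710-26494841, minus strand) overlaps an exon of the lincRNA Snhg7. SNORA57 (chr19:8963028-8963175, minus strand) has no annotated gene around it on its strand, and the nearest protein-coding gene, 1810009A15Rik, is 217 bases away.
Snora17: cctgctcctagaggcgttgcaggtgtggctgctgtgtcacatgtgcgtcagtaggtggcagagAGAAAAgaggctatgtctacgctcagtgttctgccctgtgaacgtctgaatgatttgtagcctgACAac
SNORA57: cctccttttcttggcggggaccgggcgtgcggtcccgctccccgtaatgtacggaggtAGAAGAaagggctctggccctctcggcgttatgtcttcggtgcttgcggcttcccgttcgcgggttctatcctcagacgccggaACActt

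The SNORA65 genes are shown because their reads could not be told apart. SNORA65 (U65) guides a modification of the rRNA of the large ribosomal subunit. One copy is at chr12:31943798-31943927 on the minus strand and the other at chr14:58316646-58316774 on the plus strand, opposite to Lats2. Snora65 itself lies within Rpl12, a ribosomal protein gene, at chr2:32818811-32818940 on the plus strand, and in the copies capitals mark the bases that differ from it.
Snora65 in Rpl12: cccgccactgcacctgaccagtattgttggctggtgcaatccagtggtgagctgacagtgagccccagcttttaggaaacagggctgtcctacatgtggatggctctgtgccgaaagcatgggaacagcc
SNORA65 on chromosome 12: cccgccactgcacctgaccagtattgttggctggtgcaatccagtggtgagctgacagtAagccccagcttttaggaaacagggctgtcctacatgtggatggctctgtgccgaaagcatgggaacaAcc
SNORA65 on chromosome 14: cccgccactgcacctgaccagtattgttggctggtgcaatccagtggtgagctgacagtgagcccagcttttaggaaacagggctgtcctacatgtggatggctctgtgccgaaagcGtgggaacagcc
Each copy differed from Snora65 at 2 bases, of which 1 on chromosome 14 is a missing base.

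Across the 27 genes, H/ACA snoRNAs were lower in NPCs than in ESCs. Lower RPM in NPCs was found at 25 genes and higher RPM at 2, whereas 37.1% of all genes with at least 10 reads were lower. More than 2-fold lower were 20 genes, set beside 13.3% of all genes, and 0 were more than 2-fold higher, set beside 25.5% of all genes. The interval of the ratio lay wholly below 1 at 20 genes, included 1 at 7 and lay wholly above 1 at 0, whereas over all genes it lay below 1 at 20.3% and above 1 at 42.2%. With 1 read added in each library, the log2 ratio of NPCs to ESCs had a median of -1.87, and over all genes it was 0.34. The genes together had 119011 reads in ESCs, 2.79% of the library, and 25688 in NPCs, 0.584%, a ratio of 0.210 (0.207 to 0.212). Because the limit on reads applies to the libraries together, a gene could enter on its ESC reads alone. SNORA71 on chromosome 7 (12 reads in ESCs and 0 in NPCs), SNORA21 (12 and 2), SNORA76 (14 and 3) and SNORA48 on chromosome 13 (31 and 8) did so. All are among the genes more than 2-fold lower, and their direction is not a finding. Among genes with at least 50 reads together, 17 of 18 were lower and 14 more than 2-fold lower.

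**Figure D1:**
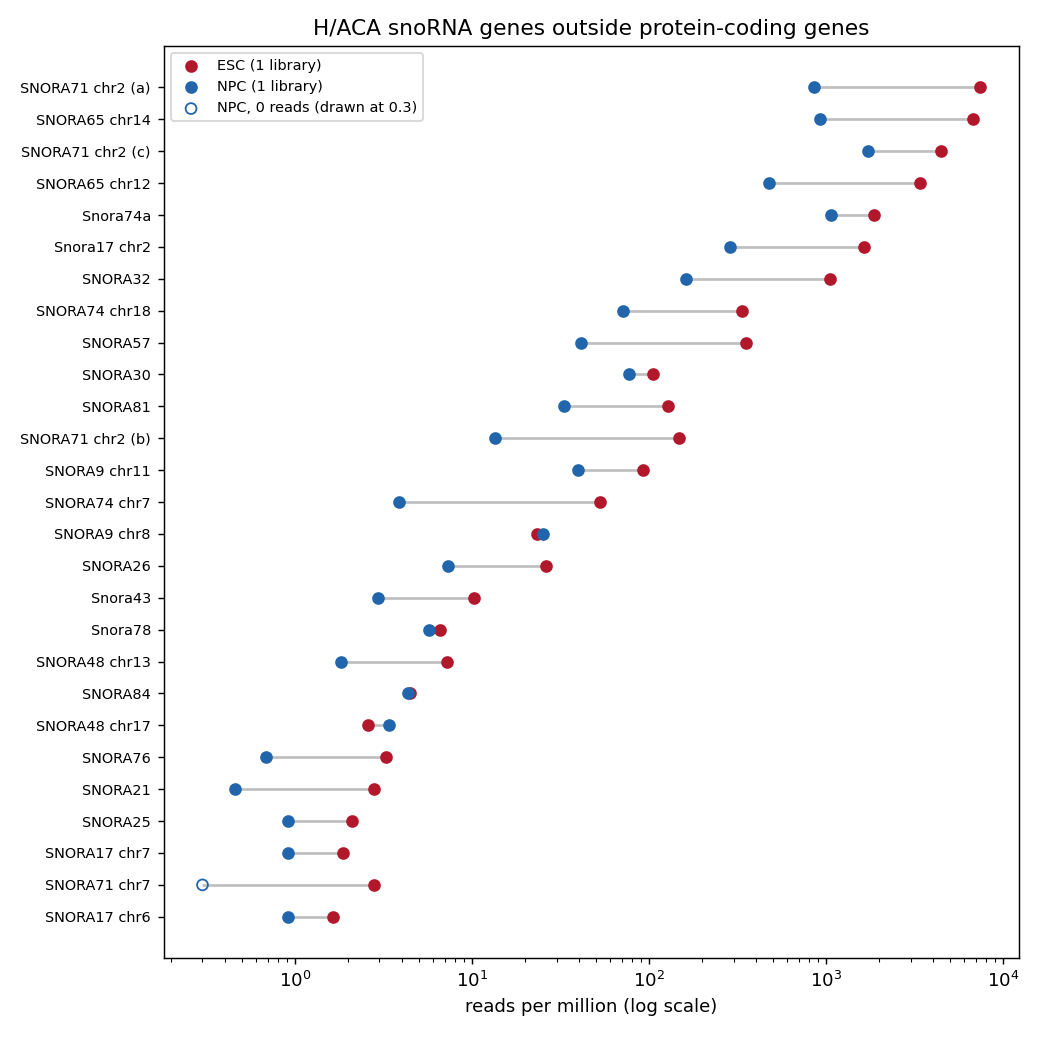
RPM (log scale) of the 27 H/ACA snoRNA genes in the ESC library (red) and the NPC library (blue), ordered by reads, with grey lines joining the libraries. RPM is higher in ESCs at 25 genes, and in NPCs at SNORA9 on chromosome 8 and SNORA48 on chromosome 17. At both of the latter the interval of the ratio includes 1. The open point is a gene with 0 reads in NPCs.

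Reads were concentrated on few genes. The 3 genes with most reads held 66.8% (ESCs) and 60.1% (NPCs) of the reads of the set, and the 12 with most reads held 99.1% and 98.3%. Per gene, reads ranged from 7 to 31704 in ESCs (median 226) and from 0 to 7605 in NPCs (median 59). Per length, levels (RPKM, RPM scaled to the length of the gene) ranged from 12.7 to 56661 RPKM in ESCs and from 0 to 13095 RPKM in NPCs. The genes themselves were 113 to 196 nt long.

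By all reads, the SNORA71 copies of Snhg17 had different ratios. Copy a had 31704 reads in ESCs and 3771 in NPCs, making it 8.66-fold (8.37 to 8.96) lower in NPCs. Copy b had 626 reads in ESCs and 59 in NPCs, making it 10.9-fold (8.36 to 14.5) lower. Copy c had 19043 reads in ESCs and 7605 in NPCs, making it 2.58-fold (2.51 to 2.65) lower. The intervals of copies a and b overlapped, and that of copy c lay apart from both. With each start position counted once, however, the log2 ratio (1 added in each library) was -0.72 for copy a, -1.46 for copy b and -0.15 for copy c, and copies a and c were no longer more than 2-fold lower. Few start positions remained, 31 in ESCs and 19 in NPCs for copy a, 27 and 25 for copy c, and 7 and 2 for copy b. Each base adds at most 1 to such a count, however many reads begin there. It therefore cannot measure the fold change of reads piled on few bases. In length-scaled level, copy a was the highest of the 3 in ESCs (56661 RPKM against 33775 for copy c and 1297 for copy b), and copy c was the highest in NPCs (13095 RPKM against 6543 and 119). Copy a thus accounted for 61.7% (61.3 to 62.1%) of the trio in ESCs and 33.0% (32.1 to 33.8%) in NPCs, while the share of copy c went from 37.1% (36.7 to 37.5%) to 66.5% (65.6 to 67.4%). These shares do not depend on how the libraries are scaled. Every exactly matching read of the trio had a 48 nt sequence that occurs once in mm9. Reads with a mismatch numbered 306 in ESCs and 43 in NPCs for copy a, and 260 and 86 for copy c. Most reads of copies a and c began at the annotated first base or 1 base before it. Within the gene, such reads span only the first base at which copies a and c differ. Whether wrong calls at that base moved reads between these copies was not tested.

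Exons of the host were counted with snoRNA reads left out. 9430008C03Rik had 77 such reads in ESCs and 71 in NPCs, a ratio of 0.895 (0.639 to 1.25), at 4.1 and 3.67 RPKM. Its snoRNAs together had a ratio of 0.216 (0.212 to 0.221). The intervals do not overlap. RNA with a poly(A) tail was removed from these libraries, so exon reads show only what was left.

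Snhg7 holds Snora17 and Snora43. Snora17 had 6953 reads in ESCs and 1253 in NPCs, making it 5.72-fold (5.38 to 6.08) lower in NPCs. Snora43 (chr2:26493367-26493505) had 44 and 13 reads, and was 3.49-fold (1.84 to 7.06) lower. Snora17 made up 99.4% (ESCs) and 99% (NPCs) of the reads of the pair. Their ratios could not be told apart at this depth. Exons of Snhg7 had 85 reads in ESCs and 79 in NPCs, a ratio of 0.902 (0.656 to 1.24).

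Snhg4 holds Snora74a (chr18:35716686-35716881) and a gene named SNORA74 (chr18:35714146-35714286), both in introns on the plus strand. SNORA74 (U19) guides modification of the rRNA of the large subunit. Snora74a had 7929 reads in ESCs and 4710 in NPCs, making it 1.73-fold (1.67 to 1.8) lower in NPCs. SNORA74 had 1436 and 312 reads, and was 4.74-fold (4.19 to 5.38) lower. Within the pair, the share of Snora74a was 84.7% (83.9 to 85.4%) in ESCs and 93.8% (93.1 to 94.4%) in NPCs. Reads of a sequence found once gave SNORA74 a ratio of 0.251 (0.219 to 0.288) from 1032 and 267 reads, against 0.580 (0.559 to 0.601) for Snora74a from 7807 and 4664 reads. Exons of Snhg4 had 31 reads in ESCs and 29 in NPCs, a ratio of 0.908 (0.528 to 1.56).

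The other noncoding hosts held 1 gene each. SNORA9 (chr11:6428036-6428168) lies in Gm11974, whose RefSeq symbol is Snhg15, and overlaps an exon. It had 394 reads in ESCs and 175 in NPCs, a ratio of 0.431 (0.359 to 0.517), and the exons without it had 122 and 67 reads, a ratio of 0.533 (0.39 to 0.724). Here snoRNA and exon intervals overlap. Snora78 in the intron of Snhg9 had 28 and 25 reads, a ratio of 0.867 (0.485 to 1.54), and Snhg9 exons had 0 reads in either library.

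By location, the 9 genes within a noncoding gene were all lower in NPCs, 7 of them more than 2-fold, with a median log2 ratio of -1.73. Of the 18 genes with no gene around them on the same strand, 16 were lower and 13 more than 2-fold lower, with a median of -1.90. Over all genes, 37.1% were lower and 13.3% more than 2-fold lower. Of the 50854 ESC reads of the 18 genes, 28773 and 14543 fell on the SNORA65 genes and 4470 on SNORA32 on chromosome 13. Nearly all of these reads also occur in genes within protein-coding genes, so their location could not be told. The most abundant of the 18 whose reads could be placed was SNORA57, with 1512 reads in ESCs and 182 in NPCs, 8.56-fold (7.33 to 10) lower in NPCs. By reads found once it had 1471 and 166 reads, a ratio of 0.110 (0.0927 to 0.129). SNORA26 and SNORA76, also placed, were 3.61-fold (2.42 to 5.52) and 4.81-fold (1.34 to 26.1) lower, the latter from 14 and 3 reads. The 500 bases upstream of SNORA76 held 1192 reads in ESCs and 377 in NPCs, where the C/D snoRNA Snord104 is annotated.

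H/ACA snoRNA genes within protein-coding genes, filtered alike, were taken for comparison. Of 107 such genes, 101 were lower in NPCs, 76 more than 2-fold lower and 2 more than 2-fold higher. Their median log2 ratio was -1.55, with quartiles at -2.05 and -0.86, and the median outside protein-coding genes was -1.87, with quartiles at -2.77 and -0.84. The difference of the medians was -0.32, and the quartile ranges overlapped. The summed ratio was 0.297 (0.295 to 0.299) within protein-coding genes and 0.210 (0.207 to 0.212) outside. Some genes outside share reads with genes inside, so the sets are not independent.

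**Figure D2:**
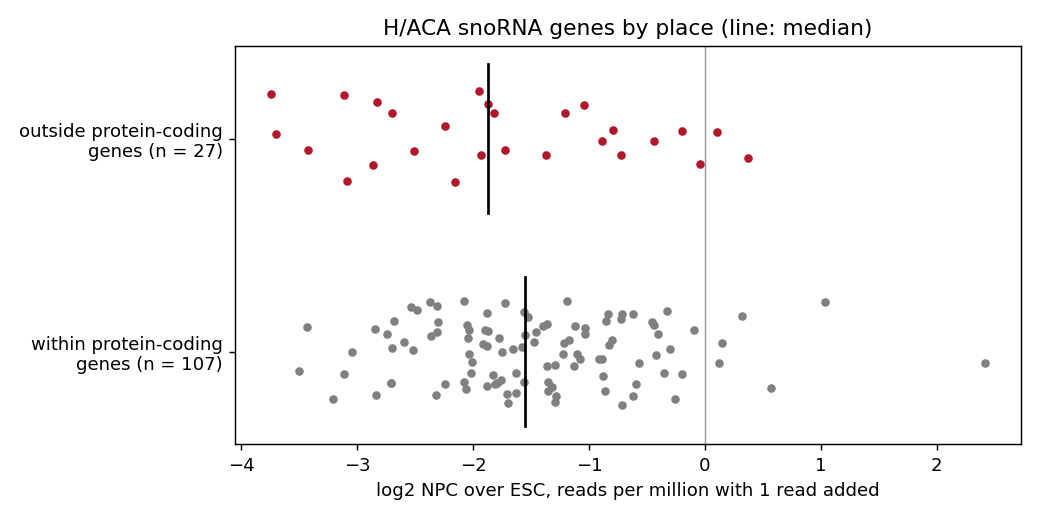
Log2 ratio of NPC to ESC (from RPM, 1 read added) for the 107 H/ACA snoRNA genes within protein-coding genes (grey) and the 27 outside (red), with 1 point per gene, vertical jitter without meaning and a black line at each median. The medians are -1.55 and -1.87, and the point clouds overlap.

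Many genes outside protein-coding genes could not be counted alone. The aligner kept 1 placement for a read that fits several places. Reads whose 48 nt occur once in mm9 made up 57.6% (ESCs) and 69.7% (NPCs) of the reads of the set, and reads found at 2 or more places 41.3% and 29.3%. By gene, 12 had at least 90% of their reads at sequences found at most once (a read with a mismatch to mm9 counts here), 9 had at least 90% at 2 or more places and 6 lay in between. At 7 genes there were 0 reads found once. The 12 placed genes were all lower in NPCs, 9 of them more than 2-fold, with a median log2 ratio of -1.88, and the 9 shared genes had a median of -1.87. The placed genes include SNORA71 on chromosome 7 and SNORA76, which entered on ESC reads alone.

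**Figure D3:**
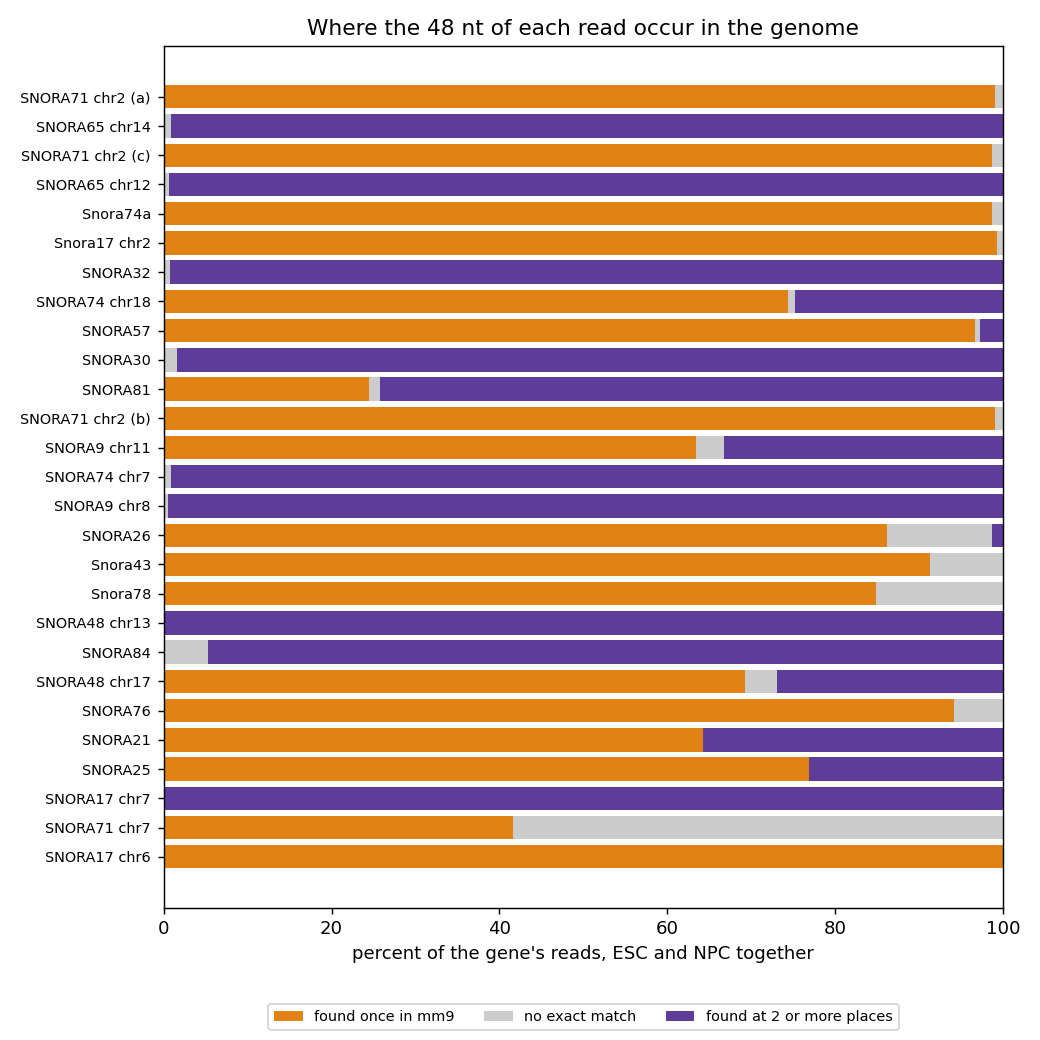
Percent of the reads of each gene, both libraries together, whose 48 nt occur once in mm9 (orange), at no place exactly (grey) or at 2 or more places (purple). Reads of SNORA65, SNORA32, SNORA30 and SNORA9 on chromosome 8 are nearly all shared, and those of the chromosome 2 SNORA71 copies nearly all occur once.

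SNORA65 shows how far this goes. The copy on chromosome 14 had 28773 reads in ESCs and 4065 in NPCs, of which 1 and 0 occurred once. The copy on chromosome 12 had 14543 and 2105 reads, of which 1 and 1 occurred once. Snora65 in Rpl12 had 35945 and 5183 reads, of which 322 and 85 occurred once. Nearly all reads began 5 or 6 bases before the annotated first base, and their sequence is common to all 3 places. The ratios were 0.137, 0.141 and 0.140. Summed over the 3 genes there were 79261 reads in ESCs and 11353 in NPCs, 7.19-fold (7.05 to 7.33) lower in NPCs, and how much of this came from each copy could not be told. Within 500 bases downstream of the chromosome 14 copy, where a pseudogene is annotated, reads were near equal, with 344 in ESCs and 339 in NPCs.

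SNORA32 on chromosome 13 (chr13:24903316-24903437, opposite to BC005537) had 4470 reads in ESCs and 707 in NPCs, 6.51-fold (6.01 to 7.06) lower in NPCs, and 0 reads found once. Its shared reads also occur in SNORA32 genes within Rock2, Hibadh and Top2a, from which it differs at 2, 3 and 3 bases. Summed over these 4 genes, reads were 34126 in ESCs and 5586 in NPCs. SNORA30 on chromosome 14 (chr14:96988046-96988175) had 450 and 341 reads, a ratio of 0.736 (0.637 to 0.849), close to 0.784 (0.689 to 0.892) for Snora30 within Srcap, with which it shares 98.4% of its reads. SNORA74 on chromosome 7 (chr7:89110596-89110720) had 226 and 17 reads, 13.7-fold (8.36 to 23.9) lower, and 99.2% of them also occur in SNORA74 of Snhg4.

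SNORA81 was no longer lower in NPCs by reads found once, with an interval that included 1. The gene (chr15:71624618-71624795, plus strand) differs from Snora81 in Eif4a2 at 2 of 178 bases, C29T and A122G, given as the base here, the position from the first base of the gene, and the base in Snora81. By all reads it had 545 in ESCs and 146 in NPCs, a ratio of 0.260 (0.215 to 0.313). By reads found once it had 74 and 95, a ratio of 1.25 (0.91 to 1.71), whereas shared reads had a ratio of 0.103 (0.0748 to 0.138). The commonest read of each kind is shown because they mark different parts of the RNA.
SNORA81 read found once: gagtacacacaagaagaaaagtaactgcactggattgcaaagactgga
SNORA81 read found at 2 places: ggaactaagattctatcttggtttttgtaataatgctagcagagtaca
The read found once begins at base 75, and only its last base, at position 122, sets it apart from Snora81. That base lies beyond the stretch of the read in which the authors limited mismatches, and errors there were not examined. The shared read begins at base 34 and spans neither difference. Reads that began at base 34 had a ratio of 0.0817 (0.0555 to 0.117) here and 0.0665 (0.0443 to 0.0963) at Snora81. Reads that began at base 75 had a ratio of 1.26 (0.92 to 1.73) here, from 74 and 96 reads, and 0.829 (0.671 to 1.02) at Snora81, from 198 and 169. At both genes reads from base 34 had the lower ratio, and the choice of reads at SNORA81 was also a choice of start position.

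**Figure D4:**
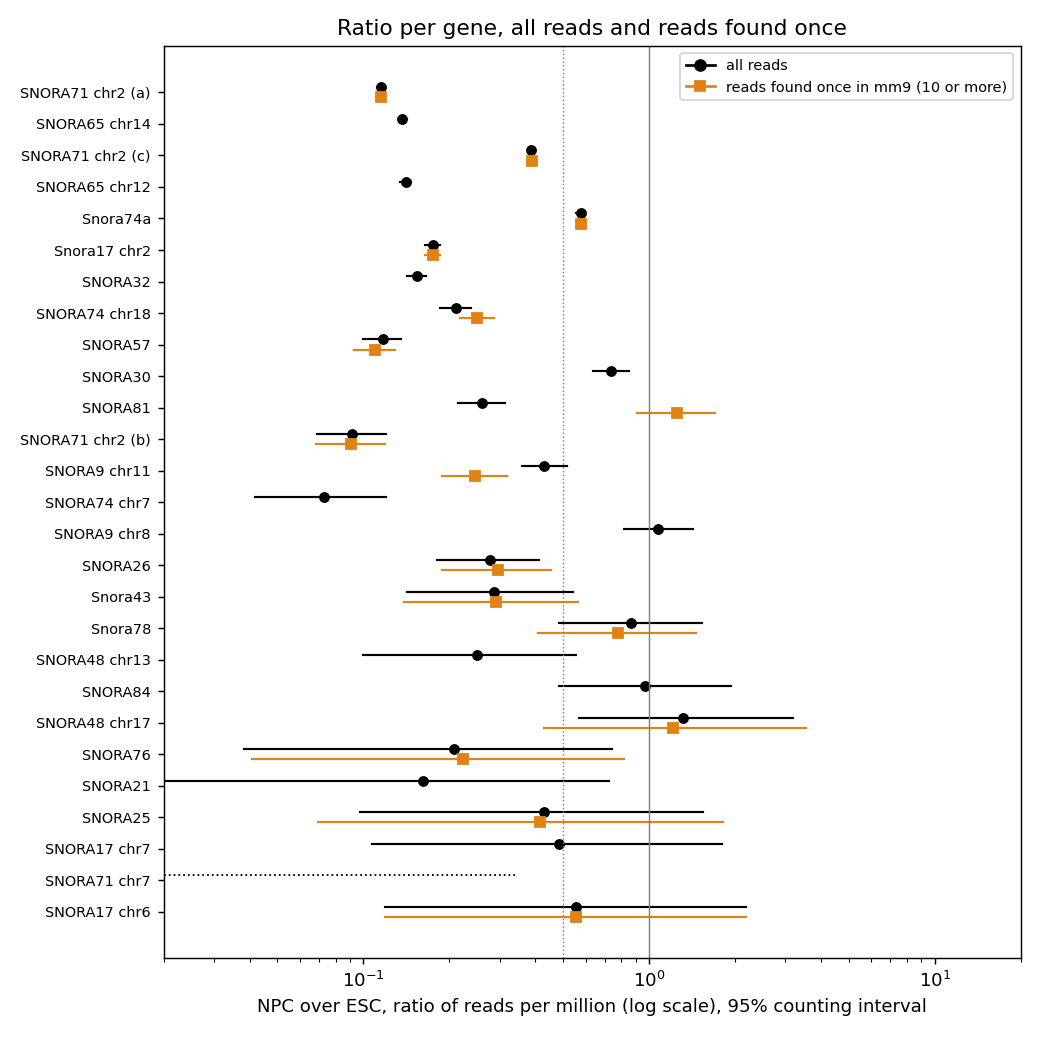
NPC over ESC ratio of RPM (log scale) for each gene with its 95% counting interval, from all reads (black circles) and, where at least 10 reads remain, from reads found once in mm9 (orange squares). Solid and dotted vertical lines mark equal levels and 2-fold lower; a dotted bar is a gene with 0 reads in NPCs, and intervals that pass the axis end are drawn to it. SNORA81 crosses from 0.260 to 1.25 and SNORA9 on chromosome 11 moves from 0.431 to 0.246.

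The SNORA9 genes also differed by start position. The copy on chromosome 8 (chr8:86904348-86904480) had 100 reads in ESCs and 111 in NPCs, a ratio of 1.08 (0.815 to 1.43), and 99.5% of its reads also occur in SNORA9 of Snhg15, from which it differs at 6 bases. Summed over both genes there were 494 reads in ESCs and 286 in NPCs, a ratio of 0.562 (0.484 to 0.651). The Snhg15 copy had a ratio of 0.246 (0.188 to 0.319) by reads found once and 0.981 (0.73 to 1.32) by shared reads. Its commonest reads of each kind begin at bases 12 and 26.
SNORA9 read found once: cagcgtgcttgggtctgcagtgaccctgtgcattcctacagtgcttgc
SNORA9 read found at 2 places: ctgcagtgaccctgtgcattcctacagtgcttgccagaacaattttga
Reads from base 12 numbered 88 in ESCs and 7 in NPCs, a ratio of 0.0772 (0.0302 to 0.166), and reads from base 26 numbered 29 and 58, a ratio of 1.94 (1.22 to 3.15).

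Most reads began near the annotated 5′-end of a snoRNA gene. Over the 27 genes, 85.2% (ESCs) and 76.0% (NPCs) of reads began between base -5 and base 5 of the gene, where base 1 is the annotated first base and base 0 the base before it, and 99.4% and 99.3% began before its midpoint. SNORA71 copy a began at base 1 in 72.0% (ESCs) and 69.8% (NPCs) of cases, with most others 1 base earlier. The shares over the 27 genes follow the genes with most reads. In ESCs, reads from base -5 to base 5 made up 99.8% at SNORA65 on chromosome 14 but 17.5% at Snora74a and 1.72% at SNORA32. A 48 nt read that lies wholly within the gene cannot begin near its 3′-end, so the share before the midpoint is high in part by length alone. Reads of many members began further inside the gene. The paper fragmented the RNA before adaptors were ligated, so such a start can also be a cut made for the library. What set these starts was not tested. SNORA57 reads began at base 24 in 72.2% (69.8 to 74.4%) of reads in ESCs and 40.1% (32.9 to 47.6%) in NPCs, and Snora74a reads began at many places, with base 8 the commonest in ESCs (16.6%) and base 23 in NPCs (25.2%). Start positions numbered 31 in ESCs and 19 in NPCs for SNORA71 copy a, against 106 and 96 for Snora74a.

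**Figure D5:**
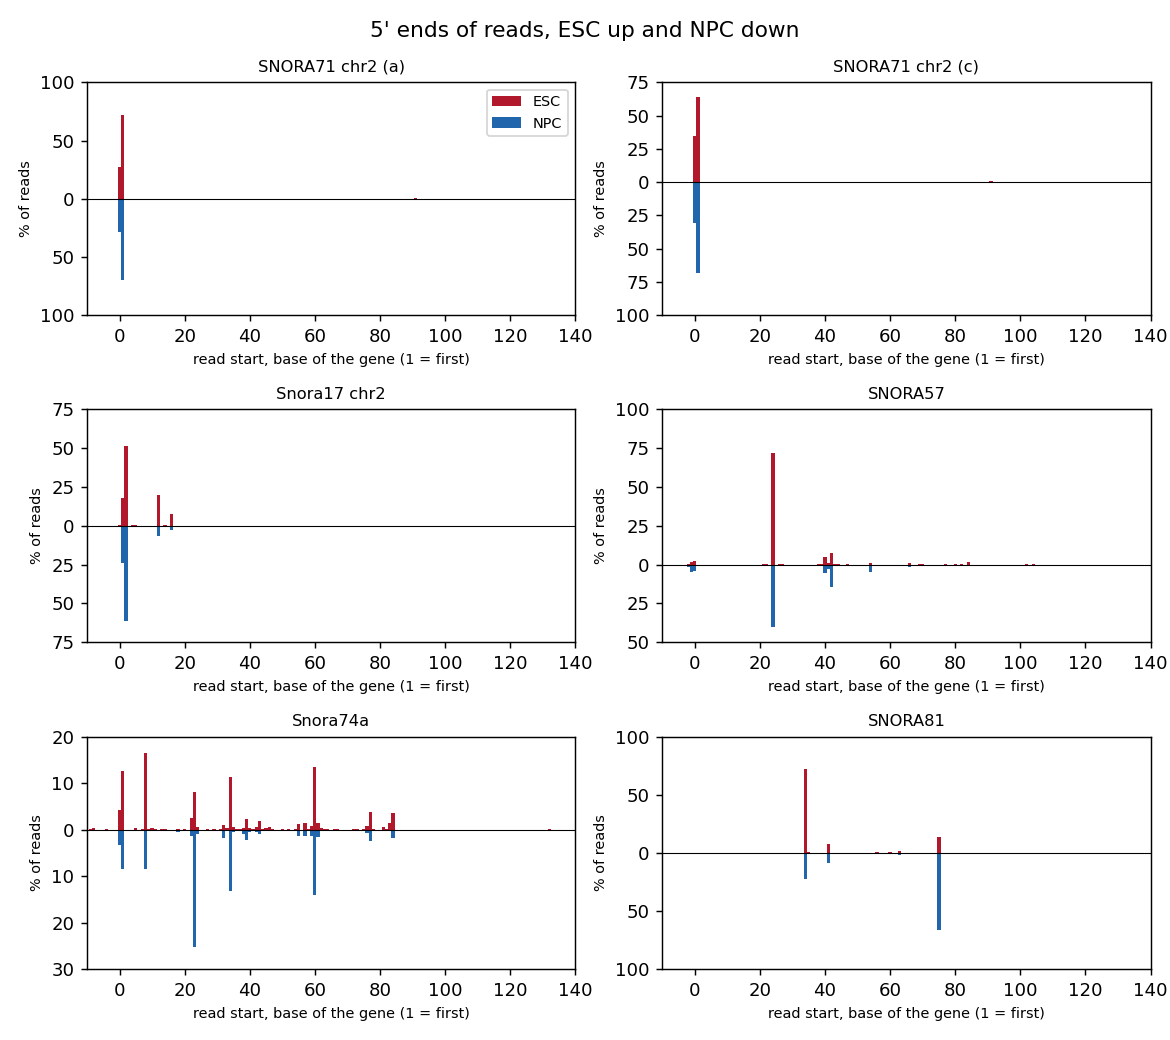
Share of the reads of a gene that begin at each base (base 1 is the annotated first base), ESCs upward in red and NPCs downward in blue, for 6 genes. Reads of SNORA71 pile up at bases 0 and 1, SNORA57 at base 24, Snora74a at several bases, and SNORA81 moves from base 34 in ESCs to base 75 in NPCs.

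The remaining copies had few reads. SNORA48 on chromosome 13 had 31 reads in ESCs and 8 in NPCs, all at sequences shared with SNORA48 within Sec24a, which had 149 and 43 reads. Of its reads, 92.3% also occur in SNORA48 within Eif4a1, which had 6629 and 1650 reads. SNORA48 on chromosome 17 had 11 and 15 reads, a ratio of 1.32 (0.568 to 3.19). SNORA17 on chromosome 7 had 8 and 4 reads, all at sequences shared with SNORA43 on chromosome 4, and SNORA17 on chromosome 6 had 7 and 4. SNORA71 on chromosome 7 (chr7:125296994-125297124, opposite to Smg1) had 12 reads in ESCs and 0 in NPCs, which allows up to 3 reads. Set against 3 reads it was 4.12-fold lower in NPCs, leaving out the counting error of the 12 reads. The interval of the ratio, which includes that error, reached 0.349, or 2.86-fold lower. The gene passed the limit on reads through its ESC reads alone, so its direction is not a finding. Of the 12 reads, 5 were found once and 7 had a mismatch to mm9. Other members outside the naming rule, Snora43, Snora78, SNORA21, SNORA25, SNORA26, SNORA76 and SNORA84, had 9 to 112 reads in ESCs and 2 to 32 in NPCs. On the opposite strand, 22 of the 27 genes had 0 reads.

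Sequence features that the choice of genes did not use were then counted. An ACA at most 5 bases from the annotated 3′-end was found in 22 of 27 genes (81.5%), set beside 63.8% of all 1031 annotated H/ACA snoRNA genes and 94.4% of the 107 in protein-coding genes. An ACA exactly 3 bases before that end was found in 15 (55.6%), set beside 24% of all and 80.4% of those in protein-coding genes. An ANANNA in the middle stretch of the gene was found in 24 (88.9%), set beside 82.9% of all and 98.1% of those in protein-coding genes. Both motifs were searched on the strand of the gene only, and ANANNA matches may overlap. A stretch of 15 bases with at least 12 A, within 30 bases after the gene, was found at 6 of the 27 (22.2%). It was found at 11.6% of all and 11.2% of those in protein-coding genes, and all 6 were among the 18 genes with no gene around them. Such stretches are known to follow RNA copied into the genome with its tail. A simple repeat can also meet the rule, and the stretch after SNORA48 on chromosome 13 is a repeat of GAAA. Of the 6, 2 are shown, with runs of 3 or more A in capitals.
SNORA71 on chromosome 7, chr7:125297125-125297154, plus strand: ttgtattAAAAAAAAAAAAAAtgacAAAAA
SNORA32 on chromosome 13, chr13:24903286-24903315, minus strand: gttgatAAAAgaagAAAAAAgAAAAAAgaa
These matches describe letters, and whether the copies are transcribed was not tested.

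A list of genes for the H/ACA particle and snoRNA assembly was counted. Of 10 measured, 5 were lower in NPCs, set beside 37.1% of all genes, and 5 were higher. More than 2-fold lower were 2, set beside 13.3%, and more than 2-fold higher was 1, set beside 25.5%, with a median log2 ratio of -0.15. With so few genes, these counts are not read as a result about the list. The gene more than 2-fold higher was Nop58, a core protein of the C/D particle and not of the H/ACA particle, with a ratio of 2.1 (1.84 to 2.39). Dkc1, the pseudouridine synthase, had 570 reads in ESCs and 307 in NPCs, a ratio of 0.523 (0.454 to 0.602). Nop10, a core protein of the particle, had a ratio of 0.423 (0.324 to 0.549), and Gar1, another core protein, had 1.89 (1.4 to 2.55). Naf1, an assembly factor, had a ratio of 1.97 (1.54 to 2.54). Terc, the telomerase RNA that shares the H/ACA fold, is not measured here.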

How the data were processed

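Each cell type has 1 library of NPA RNA. After poly(A) and rRNA depletion, the authors mapped SOLiD reads with Bowtie (mm9, best placement, several allowed) and dropped mitochondrial, ribosomal and repeat reads. The deposited values are not counts but the position, strand and 48 nt sequence of every read. Reads overlapping a GENCODE M1 gene by at least 1 base on its strand were counted here and scaled to RPM or RPKM by library totals. Read sequences were searched for exact matches on both strands of mm9. Log2 ratios over lists add 1 read; ratios carry conditional Clopper-Pearson 95% intervals, and 2-fold replaces a test. Named genes are the 12 with most reads, the 5 lowest and 5 highest ratios among those with at least 100 reads, and all names carried by 2 or more genes; others (Snora43, SNORA26, Snora78, SNORA76, SNORA84, SNORA25, SNORA21) were named after their values were seen. Members and lists were chosen with earlier results of these data known. The code was tested on simulated data. Host symbols come from RefSeq (GRCm38.p6). Tools were edlib 1.3.9.post1, numba 0.67.0, SciPy 1.17.1, NumPy 2.4.6 and Python 3.11.15. Some sequences after the genes are not reported here. Other scalings, read sets and limits were tried as alternatives.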

Additional observations from a re-analysis of the deposited data

How the results depend on the processing

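No paired analysis was possible because each cell type has 1 library. The depth and the single library limit every ratio to a comparison of libraries. The median of ratios over genes moved the median log2 ratio of all genes from 0.34 to 0. Under it 26 of 27 genes were lower, and 22 more than 2-fold; scaling by the reads outside snoRNA genes gave the same counts. The summed ratio, 0.210, became 0.166 and 0.181 under these scalings, 0.253 with reads found once, 0.258 with reads that start inside the gene, 0.25 without both SNORA65 genes and 0.712 with each start position counted once. With start positions counted once, 17 of 18 genes were lower but 3 more than 2-fold, with a median of -0.49. Such a count does not grow with reads piled on the same base, so it cannot show the size of their change. With reads found once, 14 of 16 genes were lower, 11 more than 2-fold. With 1 or more reads, 38 of 43 were lower, 31 more than 2-fold, and 5 were higher, 2 of them more than 2-fold. Among genes with at least 90% of reads found at most once, 12 of 12 were lower, 9 more than 2-fold. These include SNORA71 on chromosome 7 and SNORA76, which entered on ESC reads alone. SNORA81 changed sign with reads found once, to a log2 ratio of 0.31 from -1.94, but the interval of that ratio (0.91 to 1.71) included 1. The causes of this and the other shifts were not tested. With reads found once, 6 of the 20 named genes gave no value. Other alternatives (an added 0.5 read, at least 50 reads, no protein-coding gene on either strand, whole 48 nt intervals, copies summed) kept the direction of the medians and counts within 1.5 times. The difference of medians to genes in protein-coding hosts ranged from -0.63 to -0.09 over its alternatives. Of the 20 named genes, 19 were below 0 on the log2 scale under either scaling and with start positions counted once, and 18 with reads that start inside the gene. The SNORA65, copy-sum and 90% alternatives were added after seeing the data.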
